A study of Mus musculus with 16 samples.

Results

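The genes described here are 35 genes of germline identity and the piRNA pathway, chosen by name: germ cell RNA-binding proteins, PIWI proteins, Tudor domain proteins, piRNA processing factors, arginine methylation enzymes and other genes of the testis and early germ line. Each gene was represented by 1 probe set, the one with the highest mean over 16 arrays. Of the 35, 31 genes had a probe set of their own, among 18193 genes on the array that did. Of these, 28 passed the filter on dim signals and were tested, among 11145 genes tested. Tdrd6, Fkbp6, Ctcfl and Tuba3a had no probe set of their own and were not analysed here.

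piRNAs are small RNAs of the germ line that guide PIWI proteins to transposon transcripts and to the loci that make them. Long precursor RNAs are handed to the outer mitochondrial surface, cut, trimmed and methylated at their end, while Tudor domain proteins hold PIWI proteins in cytoplasmic granules by binding their methylated arginines. In the mouse testis this pathway silences transposons, and loss of many of its members ends in male infertility.

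The arrays measured total RNA of cultured mouse spermatogonial stem cells of the C57BL/6 background, grown from germ cells enriched for the surface protein Thy1. All groups were kept in serum-free medium with 20 ng/ml GDNF, 150 ng/ml GFRA1 and 1 ng/ml FGF2, and were treated for 30 h with siRNA. The 4 groups of 4 Affymetrix mouse expression arrays were a negative control siRNA and siRNAs against Etv5, Bcl6b or Pou3f1, which encode transcription factors that act downstream of GDNF. The labels do not say whether the 4 arrays of a group came from separate cultures, so the tests measure the spread between these samples, which may be technical, and the number of arrays limits their precision. These were bulk samples after a transient knockdown, so fewer germ cells and less RNA per germ cell cannot be told apart.

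The siRNA targets checked the labels. Etv5 intensity was 2882, 3072, 2999 and 2922 on the control arrays and 912, 912, 1676 and 898 in Etv5 knockdown, where replicate 3 kept the most Etv5 RNA. Bcl6b was 1526, 1440, 1341 and 1504 in control and 765, 611, 718 and 791 in Bcl6b knockdown, and it was also low in Etv5 knockdown, at 620, 618, 899 and 608. Pou3f1 was 692, 648, 659 and 644 in control and 393, 354, 519 and 393 in Pou3f1 knockdown. No targeted gene overlapped between its knockdown and control. Of 14 measured markers of undifferentiated spermatogonia, 13 lay above the array median on every control array, the exception being Utf1. All 11 fibroblast markers did as well, including Vim, while 7 of 9 Sertoli cell markers, 7 of 9 spermatid markers and 5 of 6 endothelial markers lay above it on no array.

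The array of Bcl6b knockdown replicate 1 stood apart from the rest. Its log2 values correlated with those of the remaining arrays at a mean r of 0.964, where the means of the other 15 lay between 0.993 and 0.995. Its 3' minus 5' control probe difference was 1.03 for Gapdh and 3.08 for Actb on the log2 scale, against -0.53 to -0.45 and 0.62 to 0.76 elsewhere. On this array 21 of the 28 tested germline genes lay outside the range of the other 15 arrays, 14 of them low and 7 high, as did 68.9% of all tested genes. Because this array widens the estimated spread of every comparison, results are given with all 16 arrays, and without this array where a call or a value changes.

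Nearly all measured germline and piRNA genes gave a signal above the array median in the control cultures. The count rests on the brightest probe set of each gene, here and for all genes. Another probe set of Piwil4, Tdrd7 and Brdt averaged only 4.91, 4.59 and 11.5 in control. On every control array, 28 of the 31 genes (90.3%) lay above the array's own median, against 10988 of 18193 genes (60.4%). The exceptions were the meiotic PIWI protein gene Piwil1, the maternal and germ cell factor gene Dppa3 and Tex13a. Piwil1 intensity was 12.9, 12.9, 13.8 and 12.9 in control, below array medians of 15.6 to 17.1, and it passed the median on 1 array, Bcl6b knockdown replicate 1, at 23.2. Dppa3 was 4.24 ± 0.0314 and Tex13a 5.19 ± 0.0372 in control (mean ± SD, n = 4), and neither passed the median on any array. The control arrays agreed closely for the others: the coefficient of variation of the 28 tested genes had a median of 3.14% and ranged from 0.992% for Dazl to 22.4% for the nuclease gene Pld6, with 27 genes under 10%.

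**Figure D1:**
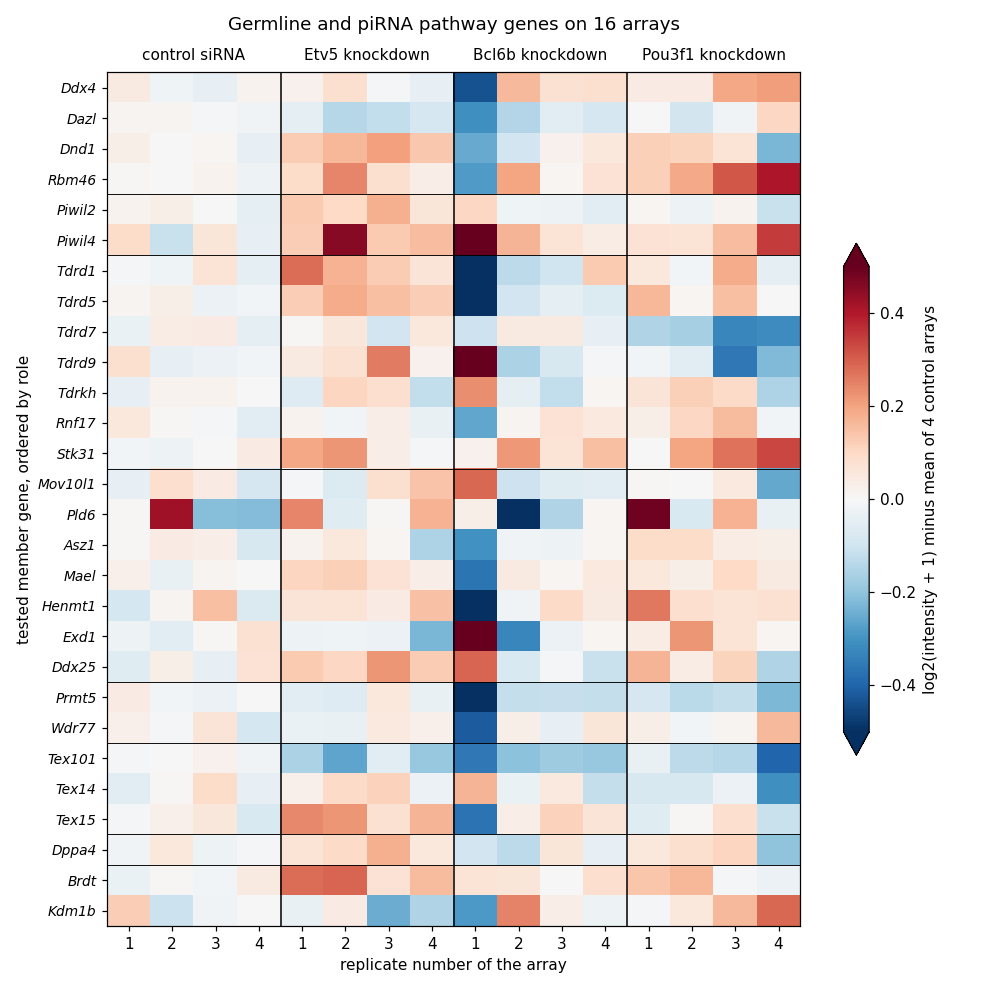
Each cell is the log2(intensity + 1) of a tested gene (rows, ordered by role) on an array (columns, 4 per group) minus the mean of the 4 control arrays; colours saturate at -0.5 and 0.5. Bcl6b knockdown replicate 1 is the column with the strongest colours, with 21 of 28 genes outside the range of the other arrays, and the Tdrd7 row is below the control mean on all 4 Pou3f1 knockdown arrays.

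Over the 28 tested genes the shifts were small. The median difference from control was 0.08 in Etv5 knockdown, -0.03 in Bcl6b knockdown and 0.05 in Pou3f1 knockdown, all on the log2(intensity + 1) scale, beside medians over all 11145 genes of -0.03, -0.01 and -0.02. The 3 knockdowns were compared with the same control arrays, so their differences are not independent of each other. In Etv5 knockdown 21 of 28 genes had a higher mean than control, where 39.5% of all tested genes did. In Pou3f1 knockdown 19 of 28 did, against 40.9% of all genes, and in Bcl6b knockdown 10 of 28 did, against 47.1%. Without Bcl6b knockdown replicate 1 the Bcl6b count was 12 of 28, against 34.2% of all genes. These counts depend on the scaling. With each array centred on its median they were 4 and 5 of 28 in Bcl6b knockdown, with and without replicate 1. The medians of the listed genes there were then -0.09 and -0.10, beside -0.07 and -0.12 over all tested genes. The genes as a whole thus also shifted down, and the lower counts are not read as a fall particular to the listed genes. The centred counts were 18 in Etv5 knockdown and 19 in Pou3f1 knockdown.

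With all 16 arrays and limma's moderated test, adjusted over all tested genes by the Benjamini-Hochberg method and called at an adjusted p under 0.05, 0 of 28 genes passed in Etv5 knockdown (2.09% of all tested genes passed) and 0 of 28 in Bcl6b knockdown (3.21%). At an unadjusted p under 0.05 there were 3 in each: Brdt, Piwil2 and Tex101 in Etv5 knockdown (11% of all tested genes), and Dazl, Prmt5 and Tex101 in Bcl6b knockdown (19.6%). In Pou3f1 knockdown 1 of 28 genes, Tdrd7, passed (2.25% of all tested genes), a share near the background. Without Bcl6b knockdown replicate 1 the counts were 3 of 28 in Etv5 knockdown (9.52% of all genes), 0 of 28 in Bcl6b knockdown (10.9%) with 5 at an unadjusted p under 0.05 (26.2%), and 4 of 28 in Pou3f1 knockdown (11.4%). These shares of the list, 10.7%, 0% and 14.3%, are near or below those of all genes.

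**Figure D2:**
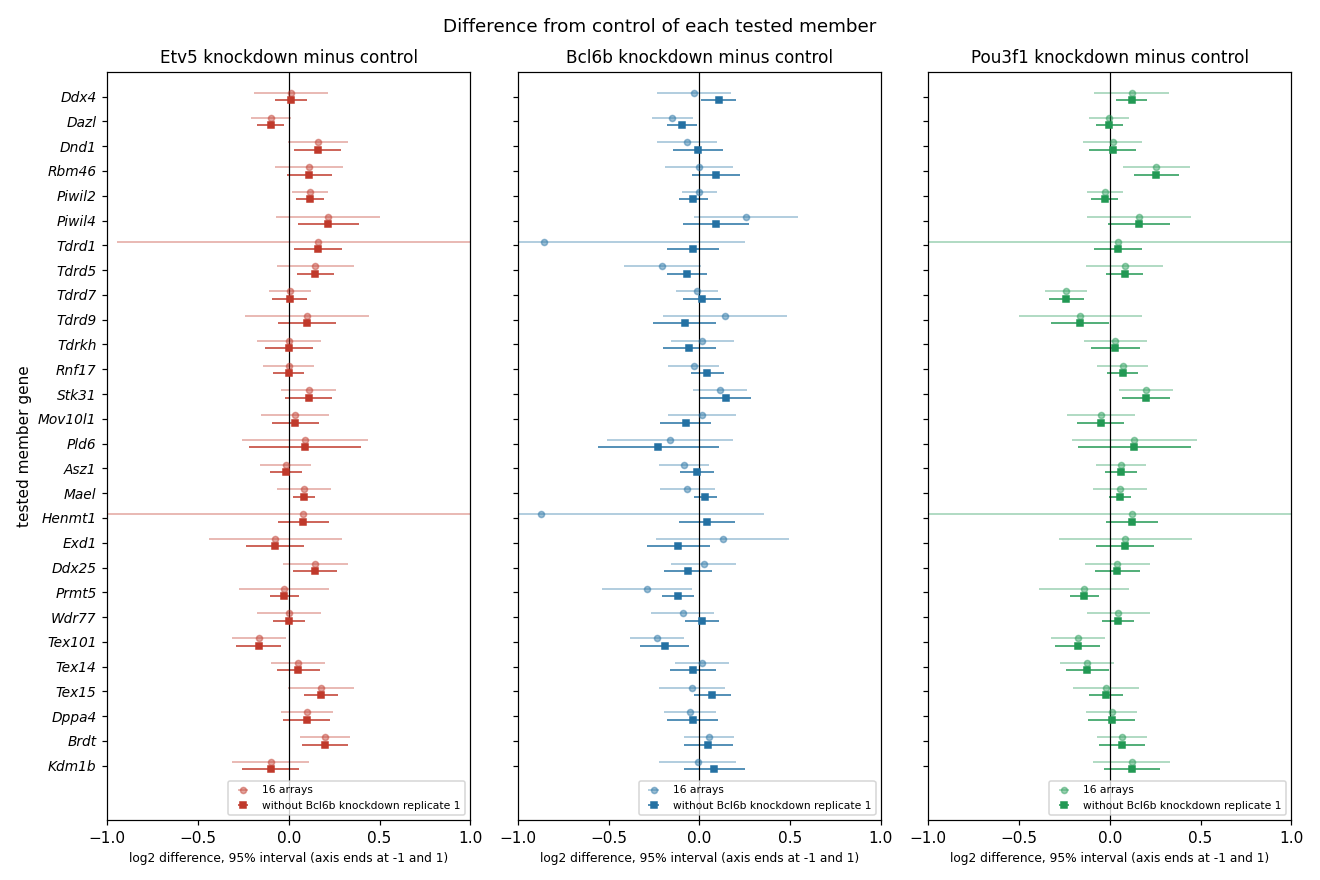
Difference from control of each tested gene in each knockdown on the log2 scale, with the 95% interval of the limma fit, from 16 arrays (circles) and without Bcl6b knockdown replicate 1 (squares); the axis ends at -1 and 1, past which the 16-array intervals of Tdrd1 and Henmt1 run. Tdrd7 in Pou3f1 knockdown is at -0.24 in both fits.

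Tdrd7, a Tudor domain protein of the chromatoid body of germ cells, was the only listed gene to pass against control with all 16 arrays, in Pou3f1 knockdown. Its intensity was 2937, 3082, 3096 and 2916 on the control arrays and 2707, 2678, 2397 and 2420 in Pou3f1 knockdown. It was 3017, 3131, 2816 and 3115 in Etv5 knockdown, and 2800, 3098, 3100 and 2918 in Bcl6b knockdown. All 4 Pou3f1 knockdown arrays lay below all 12 others, and the Etv5 and Bcl6b knockdown arrays overlapped the control. In Pou3f1 knockdown it fell by 0.24 on the log2 scale (SE 0.05, 95% interval -0.36 to -0.12, limma adjusted p = 0.0292), and without Bcl6b knockdown replicate 1 the adjusted p was 0.00228. It was lower in Pou3f1 knockdown than in Etv5 knockdown by a log2 difference of 0.24 (adjusted p = 0.0314), in a comparison in which 1.44% of all tested genes passed. It was lower than in Bcl6b knockdown by a log2 difference of 0.23 (adjusted p = 0.0410; 2.18% of all genes passed), and by 0.25 without Bcl6b knockdown replicate 1 (adjusted p = 0.00382; 5.11% of all genes passed). The differences from Etv5 and Bcl6b knockdown passed in 22 and 11 of 30 alternative settings. The call against control was lost when any control array or Pou3f1 knockdown replicate 3 or 4 was left out of the 16, with adjusted p between 0.0521 and 0.109. It was also lost when its probe sets were averaged, at -0.10 (adjusted p = 0.243), since the other Tdrd7 probe set read 4.59 on average in control and lay above the array median on no array.

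Of the 3 RefSeq promoter windows of Tdrd7 in GRCm38.p6, each 250 bases before to 50 after an annotated start, the second is shown because it held an interferon-type (ISRE) motif, GAAA followed by any pair of bases and GAAA again. The motif was searched on both strands, is in capitals and begins at position -191 from the start of transcription. The window is chr4:45972047-45972346 on the plus strand.
Tdrd7: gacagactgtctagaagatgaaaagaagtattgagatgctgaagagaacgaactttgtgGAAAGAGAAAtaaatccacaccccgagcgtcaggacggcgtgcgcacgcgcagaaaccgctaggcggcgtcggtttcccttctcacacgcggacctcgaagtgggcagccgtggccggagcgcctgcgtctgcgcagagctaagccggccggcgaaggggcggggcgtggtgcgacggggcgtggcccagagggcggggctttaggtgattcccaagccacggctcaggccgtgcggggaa
Among the 26 listed genes with a RefSeq window, 2 held this motif (Tdrd7 and Piwil4), or 7.7%, against 3.99% of 27025 genes. A match is a description of the sequence and not evidence of binding.

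The 5 tested genes outside the lists whose values followed Tdrd7 most closely over the 15 arrays were Xaf1, Parp9, Gbp2, Trim21 and Psmb10, with Pearson correlations of 0.957, 0.953, 0.948, 0.943 and 0.940 among 11028 genes searched. These correlations are descriptions over arrays that share group structure. In the 16-array fit these genes fell in Pou3f1 knockdown by 0.55, 0.49, 0.50, 0.43 and 0.34 on the log2 scale. The ranking used the Pou3f1 knockdown arrays, and Tdrd7 was taken for its call there. Falls in that group therefore followed from the choice of genes and are no separate result. Xaf1, Parp9, Gbp2, Trim21 and Psmb10 are known as interferon-inducible genes. Xaf1 intensity averaged 6347 in control and 4350 in Pou3f1 knockdown.

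**Figure D3:**
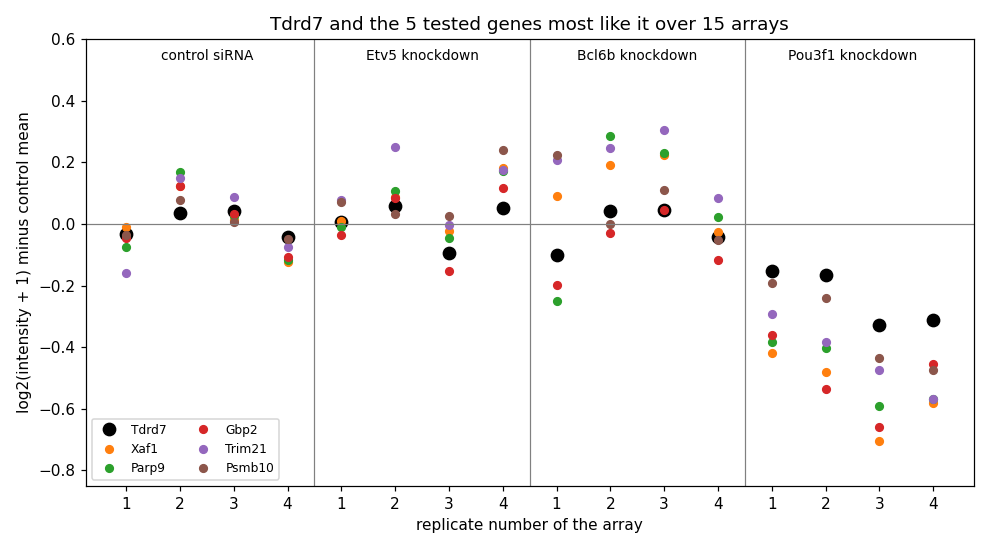
log2(intensity + 1) minus the control mean for Tdrd7 and the 5 tested genes with the highest Pearson correlation to it (0.940 to 0.957 over 15 arrays), by array. The Pou3f1 knockdown arrays, which were part of the ranking, lie below the control mean for all 6 genes.

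Among the germ cell RNA-binding proteins, Rbm46, which binds RNA and is needed for meiotic entry, was highest in Pou3f1 knockdown. Its intensity was 1458, 1449, 1471 and 1428 in control and 1576, 1656, 1802 and 1923 in Pou3f1 knockdown. In Etv5 knockdown it was 1546, 1720, 1535 and 1484, and in Bcl6b knockdown 1192, 1662, 1460 and 1527. The Pou3f1 and Etv5 knockdown arrays all lay above the control arrays. Without Bcl6b knockdown replicate 1 it rose in Pou3f1 knockdown by 0.26 (SE 0.06, limma adjusted p = 0.00800), while with all 16 arrays the adjusted p was 0.186. With its 2 probe sets averaged over the 15 arrays the difference was 0.18 (adjusted p = 0.0736), and its second probe set alone differed by 0.11 (adjusted p = 0.398).

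Ddx4, the germ cell RNA helicase also called VASA, was 7104, 6795, 6709 and 6978 in control and 6996, 7289, 6853 and 6699 in Etv5 knockdown. In Bcl6b knockdown it was 5098, 7713, 7260 and 7295, and in Pou3f1 knockdown 7089, 7102, 7874 and 7966. Apart from the low replicate 1, the Bcl6b knockdown arrays lay above control, by 0.11 without that array (adjusted p = 0.139), and Ddx4 passed no test. Dazl, which promotes translation in germ cells, was 16778, 16773, 16547 and 16449 in control, with Etv5 knockdown arrays at 16085, 15068, 15267 and 15685. The Bcl6b knockdown arrays were at 13438, 15038, 16034 and 15683 and the Pou3f1 knockdown arrays at 16605, 15629, 16422 and 17878. All Etv5 and Bcl6b knockdown arrays lay below control for Dazl, by -0.10 (adjusted p = 0.521) and -0.15 (adjusted p = 0.136), neither of which passed, nor did they without Bcl6b knockdown replicate 1 (-0.10 and -0.09, adjusted p = 0.0897 and 0.129), and its second probe set differed by 0.02 and -0.03. With each array centred on its median the Bcl6b difference of Dazl passed, at -0.21 (adjusted p = 0.0289).

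Dnd1, which protects germ cell mRNAs and is needed for germ cell survival, was 1279, 1254, 1262 and 1217 in control and 1369, 1407, 1445 and 1376 in Etv5 knockdown. All 4 Etv5 knockdown arrays lay above control, by 0.16 (95% interval -0.00 to 0.32, adjusted p = 0.474, and 0.109 without Bcl6b knockdown replicate 1). It was 1052, 1171, 1272 and 1300 in Bcl6b knockdown and 1360, 1352, 1312 and 1069 in Pou3f1 knockdown, both of which overlapped control.

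Of the PIWI proteins, Piwil2 (MILI), which loads primary piRNAs, was 2473, 2497, 2442 and 2373 in control and 2675, 2619, 2765 and 2553 in Etv5 knockdown. In Bcl6b knockdown it was 2630, 2411, 2400 and 2357, and in Pou3f1 knockdown 2460, 2404, 2476 and 2267. The Etv5 knockdown arrays lay above all control and Pou3f1 knockdown arrays. Without Bcl6b knockdown replicate 1 it rose in Etv5 knockdown by 0.12 (SE 0.04, 95% interval 0.04 to 0.19, limma adjusted p = 0.0470), and with 16 arrays the adjusted p was 0.310. It also differed between Etv5 and Bcl6b knockdown, by 0.15 (adjusted p = 0.0313; 4.5% of all genes passed), and between Etv5 and Pou3f1 knockdown, by 0.14 (adjusted p = 0.0220; 6.36% of all genes passed), both without that array; with 16 arrays the adjusted p was 0.279 and 0.214. With each of the 15 arrays centred on its median the Etv5 call against control was lost (0.11, adjusted p = 0.137).

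Piwil4 (MIWI2), the nuclear PIWI protein that directs transposon DNA methylation in fetal germ cells, was 318, 276, 312 and 290 in control. It was 325, 410, 327 and 332 in Etv5 knockdown, 504, 336, 313 and 306 in Bcl6b knockdown, and 314, 313, 333 and 381 in Pou3f1 knockdown. The Etv5 knockdown arrays lay above control by 0.22 (adjusted p = 0.639, and 0.0985 without Bcl6b knockdown replicate 1), which passed in neither fit. Its 2 probe sets disagreed in detection: the other one averaged 4.91 in control and passed the array median on no array. In Bcl6b knockdown Piwil4 differed by 0.26, and by 0.09 without replicate 1. Piwil1 was 12.1, 11.9, 14.3 and 12.8 in Etv5 knockdown, 23.2, 13.2, 13 and 12.9 in Bcl6b knockdown and 12.8, 13.6, 12.2 and 16 in Pou3f1 knockdown, and was not tested.

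Of the 7 Tudor domain genes tested, Tdrd7 and Stk31 passed in Pou3f1 knockdown and none passed against control in the other knockdowns, in either fit. Stk31, which pairs a Tudor domain with a kinase domain, was 4352, 4323, 4393 and 4517 in control and 4389, 5037, 5305 and 5542 in Pou3f1 knockdown. It was 5027, 5119, 4493 and 4365 in Etv5 knockdown and 4466, 5112, 4612 and 4877 in Bcl6b knockdown. Pou3f1 knockdown replicate 1 lay within the control range and the other 3 lay above it. Stk31 rose in Pou3f1 knockdown by 0.20 without Bcl6b knockdown replicate 1 (SE 0.06, limma adjusted p = 0.0455), and the adjusted p was 0.207 with it. Its second probe set differed by 0.06 (adjusted p = 0.476).

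Tdrd1, which binds PIWI proteins in granules between mitochondria, was 787, 778, 829 and 766 in control and 958, 891, 862 and 827 in Etv5 knockdown. It was 77.8, 721, 737 and 865 in Bcl6b knockdown and 820, 782, 898 and 765 in Pou3f1 knockdown. Every group overlapped the control, and Bcl6b knockdown replicate 1 lay far below the rest. The Bcl6b difference was -0.86 (95% interval -1.96 to 0.25) with that array and -0.03 (-0.18 to 0.11) without it.

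Tdrd5, needed for granule assembly, was 460, 466, 447 and 453 in control, 497, 519, 507 and 498 in Etv5 knockdown and 299.5, 428, 443 and 436 in Bcl6b knockdown. In Pou3f1 knockdown it was 512, 460, 506 and 457. The Etv5 knockdown arrays lay above control and the Bcl6b knockdown arrays below it. Neither difference from control passed (0.15, adjusted p = 0.691, and -0.20, adjusted p = 0.273), but without Bcl6b knockdown replicate 1 Etv5 and Bcl6b knockdown differed by 0.21 (95% interval 0.11 to 0.32, limma adjusted p = 0.0217), against 0.35 with it (adjusted p = 0.112). Tdrd9, a helicase with a Tudor domain, was 242, 248, 282 and 239 in Etv5 knockdown and 233, 226, 184 and 202 in Pou3f1 knockdown, groups that did not overlap. They differed by 0.26 without Bcl6b knockdown replicate 1 (adjusted p = 0.0471, and 0.752 with it), and Tdrd9 was 249, 229, 231 and 233 in control and 412, 211, 222 and 234 in Bcl6b knockdown, so both overlapped it. Its difference from control was 0.14 in Bcl6b knockdown, -0.08 without replicate 1, and -0.16 in Pou3f1 knockdown (adjusted p = 0.801). Tdrkh, which brings PIWI proteins to mitochondria, and Rnf17, a Tudor protein of spermatids, averaged 554 and 1381 in control and had differences from control between -0.06 and 0.07 in the 3 knockdowns in both fits.

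None of the 7 tested piRNA processing factors listed with them passed against control in either fit. Mov10l1, the helicase that feeds precursors into the pathway, was 1354, 1477, 1431 and 1313 in control and 1381, 1327, 1470 and 1536 in Etv5 knockdown. It was 1697, 1294, 1334 and 1338 in Bcl6b knockdown and 1399, 1393, 1441 and 1165 in Pou3f1 knockdown, and all 3 groups overlapped control. Mael, a granule protein needed for transposon silencing, was 6784, 6497, 6725 and 6676 in control and 7187, 7244, 7004 and 6828 in Etv5 knockdown. In Bcl6b knockdown it was 5182, 6876, 6715 and 6896, and in Pou3f1 knockdown 6916, 6809, 7147 and 6884. The Etv5 and Pou3f1 knockdown arrays lay above control for Mael, by 0.08 (adjusted p = 0.799, and 0.0767 without Bcl6b knockdown replicate 1) and by 0.06 (adjusted p = 0.864, and 0.215).

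The remaining processing factors also stayed short of the threshold. Henmt1, which methylates piRNA ends, averaged 140 ± 10.8 in control (SD, n = 4). Replicates 2 to 4 of Bcl6b knockdown read 138 to 149, and replicate 1 read 10.5. Its Bcl6b difference was -0.87 (95% interval -2.10 to 0.35) with that array and 0.04 (-0.11 to 0.20) without it. Exd1, a partner in piRNA biogenesis, averaged 260.5 ± 10.1 in control and read 472 on that array against 208 to 262 on the other 3, and its difference went from 0.13 to -0.11. Pld6, the mitochondrial nuclease, ranged from 156 to 245 among the control arrays, and its 95% interval in Etv5 knockdown ran from -0.26 to 0.44. Asz1, a mitochondrial scaffold, averaged 2838 ± 109 in control and differed by -0.02, -0.08 and 0.06 in the Etv5, Bcl6b and Pou3f1 knockdowns, and by -0.01 in Bcl6b knockdown without replicate 1. Ddx25, a helicase of spermatids, was 1070, 1051, 1138 and 1068 in Etv5 knockdown against 938, 997, 949 and 1029 in control, above it on every array but short of the threshold (0.15, adjusted p = 0.593, and 0.122 without Bcl6b knockdown replicate 1).

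Prmt5 and its cofactor Wdr77 methylate the arginines that Tudor domains read. Prmt5 was 1646, 1588, 1571 and 1601 in control, 1511, 1460, 1473 and 1372 in Pou3f1 knockdown and 914, 1476, 1480 and 1473 in Bcl6b knockdown. In Etv5 knockdown it was 1538, 1532, 1661 and 1559. All Pou3f1 and Bcl6b knockdown arrays lay below control. Prmt5 fell in Pou3f1 knockdown by 0.14 without Bcl6b knockdown replicate 1 (SE 0.04, limma adjusted p = 0.0224), against 0.734 with all arrays, and the Bcl6b difference of -0.12 did not pass (adjusted p = 0.0752). Centring each of the 15 arrays on its median ended the Pou3f1 call (-0.14, adjusted p = 0.0759). Wdr77 averaged 5405 ± 238 in control, 5402 ± 159 in Etv5 knockdown and 5586 ± 312 in Pou3f1 knockdown (SD, n = 4 each), with differences of -0.00 and 0.05.

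Of the testis expressed genes, Tex15, a nuclear cofactor of piRNA-directed silencing, was 4543, 4639, 4737 and 4323 in control and 5386, 5313, 4807 and 5124 in Etv5 knockdown. It was 3526, 4666, 4935 and 4772 in Bcl6b knockdown and 4373, 4574, 4831 and 4222 in Pou3f1 knockdown. The Etv5 knockdown arrays all lay above control. Tex15 rose in Etv5 knockdown by 0.18 without Bcl6b knockdown replicate 1 (SE 0.04, 95% interval 0.08 to 0.27, limma adjusted p = 0.0171), and the adjusted p was 0.471 with all 16 arrays. Its difference between Etv5 and Pou3f1 knockdown was 0.20 without that array (adjusted p = 0.0115, and 0.464 with it). Of the genes that passed in Etv5 knockdown, Tex15 kept its call under each of the 4 other settings tried on the 15 arrays.

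Tex101, a germ cell surface protein, was 1534, 1544, 1562 and 1524 in control. It was 1380, 1283, 1482 and 1350 in Etv5 knockdown, 1202, 1335, 1362 and 1351 in Bcl6b knockdown, and 1500, 1408, 1396 and 1170 in Pou3f1 knockdown. All 12 knockdown arrays lay below the 4 control arrays that the comparisons share. The differences were -0.17, -0.23 and -0.18, with limma adjusted p of 0.352, 0.0869 and 0.290, and 0.0827, 0.0623 and 0.0610 without Bcl6b knockdown replicate 1, so none passed. With each of the 16 arrays centred on its median the Bcl6b difference passed (-0.29, adjusted p = 0.0338). Tex14, a protein of the bridges between germ cells, averaged 2045 ± 94.3 in control and 1880 ± 155 in Pou3f1 knockdown, a difference of -0.12 (adjusted p = 0.526, and 0.164 without Bcl6b knockdown replicate 1).

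Brdt, a bromodomain protein of meiotic and later germ cells, was 373, 383, 378 and 394 in control and 463, 467, 401 and 426 in Etv5 knockdown. It was 400, 398, 383 and 405 in Bcl6b knockdown and 420, 429, 380 and 374 in Pou3f1 knockdown, both overlapping control. All Etv5 knockdown arrays lay above control. Brdt rose in Etv5 knockdown by 0.20 without Bcl6b knockdown replicate 1 (SE 0.06, limma adjusted p = 0.0415), with an adjusted p of 0.166 with it, and a second Brdt probe set rose by 0.33 (adjusted p = 0.00705) in a fit over 22836 probe sets. With each of the 15 arrays centred the call was lost (0.19, adjusted p = 0.0685). Kdm1b, a histone demethylase of oocyte imprinting, averaged 1848 ± 122 in control, and Dppa4, a chromatin protein of early germ cells, 732 ± 17.9 (SD, n = 4). Kdm1b differed by -0.10, -0.01 and 0.12 and Dppa4 by 0.10, -0.05 and 0.01 in the Etv5, Bcl6b and Pou3f1 knockdowns. Without replicate 1 the Bcl6b differences were 0.08 and -0.04.

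**Figure D4:**
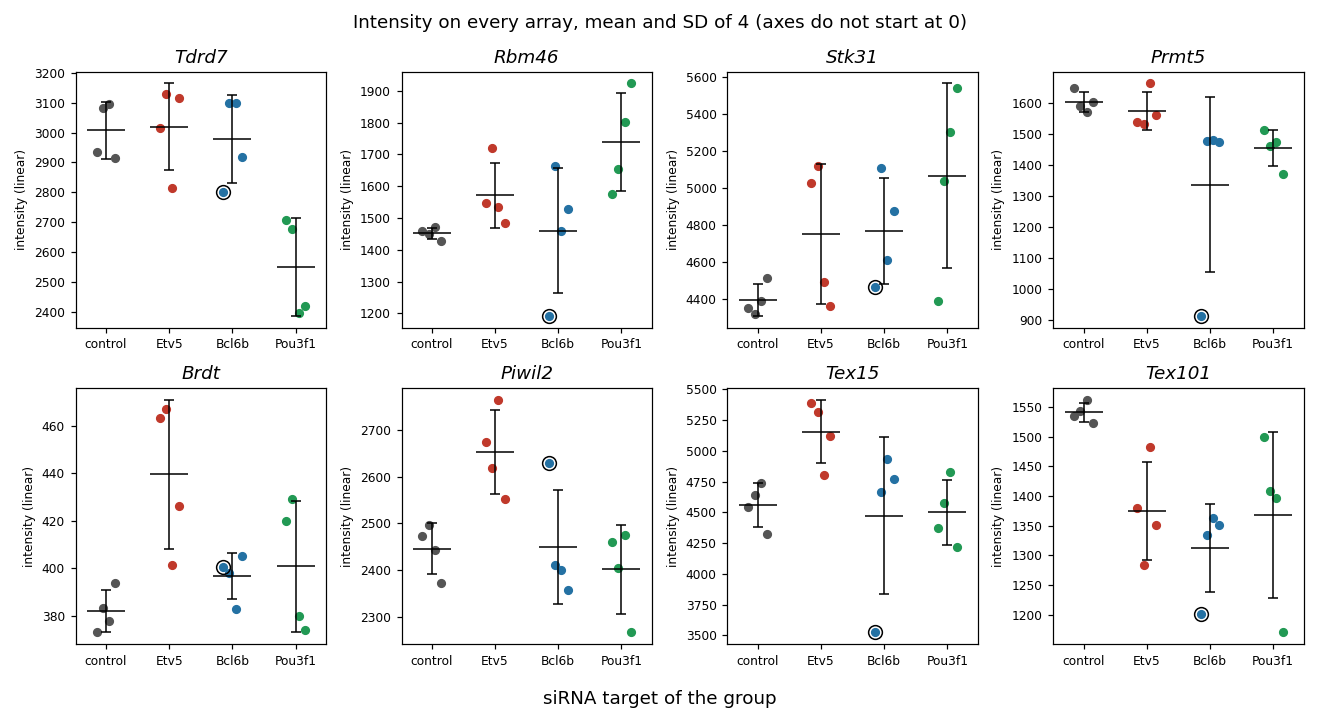
Intensity on every array (points) with the mean and SD of 4 arrays (bars) for the 7 genes that passed against control in either fit and for Tex101, by siRNA target; the ringed point is Bcl6b knockdown replicate 1 and axes do not start at 0. The Pou3f1 knockdown points of Tdrd7 lie below all others, and Tex101 lies highest in control.

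Groups that did not overlap were more frequent among these genes than among all genes in Etv5 knockdown: 11 of 28 (39.3%), beside 17.3% of all tested genes. Of these, 9 were higher (Brdt, Ddx25, Dnd1, Mael, Piwil2, Piwil4, Rbm46, Tdrd5 and Tex15), or 32.1%, beside 6.9% of all tested genes, and 2, Dazl and Tex101, were lower, beside 10.4% of all tested genes. In Bcl6b knockdown 4 of 28 did not overlap (14.3%, beside 14.7% of all genes), and without replicate 1 there were 6 (21.4%, beside 27.4%). In Pou3f1 knockdown 5 of 28 did not (17.9%, beside 18.1%). The members were chosen by name, the genes are not independent of each other, and no test was made of these shares.

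Markers of the germ cell stages that the cultures could hold moved in both directions. The 12 measured markers of undifferentiated spermatogonia other than Etv5 and Bcl6b summed to 14458 to 15017 on the control arrays and 13802 to 15614 in Etv5 knockdown, with 5 higher and 7 lower in mean. In that list Ret, the GDNF receptor kinase, rose in Bcl6b knockdown by 0.35 (limma adjusted p = 0.00509) and in Pou3f1 knockdown by 0.38 (adjusted p = 0.00350). In Etv5 knockdown, without Bcl6b knockdown replicate 1, Zbtb16 rose by 0.25 (adjusted p = 0.000835), while Id4 fell by 0.34 (adjusted p = 0.00266) and Sall4 fell by 0.18 (adjusted p = 0.0228). None of the 3 passed there with 16 arrays. Zbtb16 also rose in Pou3f1 knockdown without that array, by 0.14 (adjusted p = 0.0340). Of 7 differentiating spermatogonia markers, whose median difference in Etv5 knockdown was -0.01, Sohlh1 rose there by 0.61 (adjusted p = 0.00116). Sohlh2, Rhox13, Ccnd2 and Dmrtb1 differed by -0.07, -0.14, -0.04 and -0.01. Kit rose in Etv5 knockdown and Ccnd2 fell in Pou3f1 knockdown, without Bcl6b knockdown replicate 1 only (adjusted p = 0.0296 and 0.0482). The 14 meiotic markers, 8 of which passed the filter on dim signals, summed to 10984 to 11412 in control. Their sums were 11584 to 12646 in Etv5 knockdown and 11579 to 12408 in Pou3f1 knockdown, both above control. In mean, 10 were higher and 4 lower in Etv5 knockdown, and 11 higher and 3 lower in Pou3f1 knockdown. Both counts of higher markers include Spo11, Meiob, Prdm9, Ovol1 and Pgk2, which lay above the array median on no array. Of the 8 that passed the filter, Smc1b, Hormad1 and Ldhc were lower in Etv5 knockdown and the rest higher. In Pou3f1 knockdown Smc1b, Rec8 and Ldhc were lower and the rest higher. The bright gene Sycp3 weighs most in the sum, with means of 5634 in control and 6371 and 6221 in these knockdowns. Smc1b went the other way, from 1662 to 1551 and 1566. Of 9 spermatid markers, 7 were below the array median on every array. The meiotic marker Sycp3 rose in Etv5 knockdown by 0.18 without Bcl6b knockdown replicate 1 (adjusted p = 0.0226), and in that fit Rec8 fell in Pou3f1 knockdown by 0.28 (adjusted p = 0.00380), where Sycp1, Sycp2, Sycp3, Dmc1 and Hormad1 differed by 0.09 to 0.14. With 16 arrays the adjusted p was 0.246 for Sycp3 and 0.304 for Rec8.

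Among markers of somatic cells, Vim, an intermediate filament gene of fibroblasts, rose by 0.33, 0.29 and 0.35 in the Etv5, Bcl6b and Pou3f1 knockdowns (limma adjusted p = 0.00189, 0.00341 and 0.000967). The other 10 fibroblast markers summed to 144269 to 145648 in control, 144143 to 151996 in Etv5 knockdown, 138002 to 147332 in Bcl6b knockdown and 138586 to 144642 in Pou3f1 knockdown, and each knockdown overlapped control. In mean, 9 of the 10 were higher in Etv5 knockdown, 1 in Bcl6b knockdown (5 without replicate 1) and 4 in Pou3f1 knockdown. Postn and Pdgfrb rose in Etv5 knockdown by 0.19 and 0.24 without Bcl6b knockdown replicate 1 (adjusted p = 0.000487 and 0.0131). In the same fit Postn rose in Pou3f1 knockdown by 0.15 (adjusted p = 0.00303), Pdgfrb rose in Bcl6b knockdown by 0.30 (adjusted p = 0.00477), and Fn1 fell in Pou3f1 knockdown by 0.12 (adjusted p = 0.0136). Of the 6 macrophage and leukocyte markers tested, whose median difference in Etv5 knockdown was 0.03, Mrc1 fell there by 1.31 (adjusted p = 0.00189) and Lyz2 fell by 1.57 without Bcl6b knockdown replicate 1 (adjusted p = 0.00893, and 0.0747 with it). Cd68, Ptprc and Cd14 differed by 0.24, 0.30 and 0.11. The endothelial marker Plvap fell by 1.30 in Etv5 knockdown (adjusted p = 0.00140), and the other 5 endothelial markers stayed below the array median on every array. The Sertoli cell marker Rhox5 in Etv5 knockdown and the Leydig cell marker Star in Bcl6b knockdown passed without Bcl6b knockdown replicate 1 only, at -0.15 and -0.21 (adjusted p = 0.0496 and 0.0129). Of all listed genes other than the 35, those that passed between knockdowns but not against control were Stra8, higher in Etv5 than in Pou3f1 knockdown by 0.37 with 16 arrays (adjusted p = 0.0237), and, without Bcl6b knockdown replicate 1 only, Cd68, Col1a2, Dnmt3b, Ehmt2, Gfra1 and Lin28a. The part of these cell types in the values of the germline genes was not tested.

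Pou3f1 knockdown replicate 4 also stood apart for these genes, with 13 of 28 outside the range of the other 15 arrays where 18.6% of all tested genes were. Without it, Tdrd7 differed from control by -0.22 (adjusted p = 0.0917), and no listed gene passed in Pou3f1 knockdown with the other 15 arrays.

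Of 21 tested genes of piRNA biogenesis and transposon silencing outside the 35, Morc1 passed in Etv5 knockdown and none passed in Bcl6b or Pou3f1 knockdown. Morc1, a germ cell protein that represses transposons, was 855, 823, 850 and 865 in control and 1162, 1240, 1084 and 1004 in Etv5 knockdown. Every Etv5 knockdown array lay above control, and it rose by 0.40 (limma adjusted p = 0.0306, and 0.000490 without Bcl6b knockdown replicate 1). Without that array Uhrf1, which guides maintenance DNA methylation, also fell in Etv5 knockdown, by 0.18 (adjusted p = 0.0486). The median differences of the 21 genes were 0.01, 0.03 and -0.00 in the Etv5, Bcl6b and Pou3f1 knockdowns, and -0.02 in Bcl6b knockdown without replicate 1. Of 9 tested repressors of germline genes, none passed with 16 arrays, and without Bcl6b knockdown replicate 1 Rnf2, a Polycomb ubiquitin ligase, rose in the Etv5, Bcl6b and Pou3f1 knockdowns by 0.16, 0.15 and 0.22 (adjusted p = 0.00284, 0.0106 and 0.000163), 3 comparisons that share the control arrays. Of 7 spliceosomal and arginine methylation partners, Riok1, a Prmt5 partner, rose in Pou3f1 knockdown by 0.16 without that array (adjusted p = 0.0469), and its adjusted p was 0.640 with it.

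The probe sets of a gene disagreed on Bcl6b knockdown replicate 1. For Asz1, 1 probe set went from 2838 in control to 2299 on that array and the other from 2109 to 224. For Wdr77 the 3 probe sets went from 5405 to 4048, from 1497 to 103 and from 671 to 773. For Rnf17 they went from 1381 to 1152, from 421 to 26.2, from 384 to 57.6 and from 544 to 442. A level on replicate 1 therefore depended on which probe set stood for the gene.

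**Figure D5:**
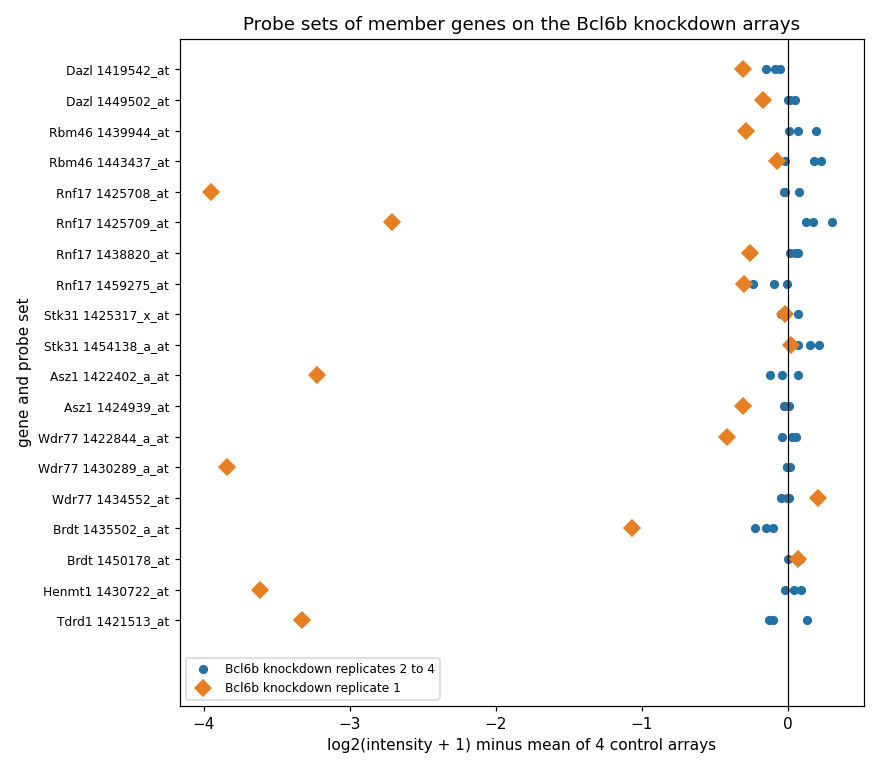
log2(intensity + 1) minus the control mean for probe sets of listed genes on the Bcl6b knockdown arrays; diamonds are replicate 1 and circles replicates 2 to 4. On replicate 1 the probe sets of Wdr77 run from 0.20 to -3.84, those of Asz1 from -0.30 to -3.23 and those of Rnf17 from -0.26 to -3.95.

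The promoters of many of the listed genes share a motif that the choice of genes did not use. The palindromic E-box CACGTG, which reads the same on both strands, lay in the RefSeq window of 13 of 26 genes (50%), against 8.09% of 27025 genes in GRCm38.p6: Brdt, Ddx25, Ddx4, Fkbp6, Mael, Mov10l1, Piwil1, Pld6, Rbm46, Stk31, Tdrd1, Tdrd9 and Wdr77. Of these, Rbm46 and Stk31 rose in Pou3f1 knockdown and Brdt in Etv5 knockdown, in the fit without Bcl6b knockdown replicate 1. With all arrays they did not pass (limma adjusted p = 0.186, 0.207 and 0.166). The other E-box genes passed against control in neither fit, and Fkbp6 and Piwil1 among them were not tested. The windows of the 3 genes that rose are shown, with the E-box in capitals. It begins at position -34 in Rbm46 (chr3:82876434-82876733, minus strand), -55 in Stk31 (chr6:49395289-49395588, plus strand) and -78 in Brdt (chr5:107330944-107331243, plus strand).
Rbm46: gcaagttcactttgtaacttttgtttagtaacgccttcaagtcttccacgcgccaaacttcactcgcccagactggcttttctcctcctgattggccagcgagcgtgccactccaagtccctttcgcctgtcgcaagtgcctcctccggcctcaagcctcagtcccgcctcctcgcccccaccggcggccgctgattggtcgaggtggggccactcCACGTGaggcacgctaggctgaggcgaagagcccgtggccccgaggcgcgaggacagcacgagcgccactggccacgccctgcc
Stk31: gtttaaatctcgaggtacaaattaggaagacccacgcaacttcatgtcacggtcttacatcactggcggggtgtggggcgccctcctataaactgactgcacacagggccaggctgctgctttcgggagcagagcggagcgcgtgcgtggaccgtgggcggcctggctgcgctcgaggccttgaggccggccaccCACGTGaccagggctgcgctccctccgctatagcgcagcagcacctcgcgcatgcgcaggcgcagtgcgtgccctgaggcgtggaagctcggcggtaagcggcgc
Brdt: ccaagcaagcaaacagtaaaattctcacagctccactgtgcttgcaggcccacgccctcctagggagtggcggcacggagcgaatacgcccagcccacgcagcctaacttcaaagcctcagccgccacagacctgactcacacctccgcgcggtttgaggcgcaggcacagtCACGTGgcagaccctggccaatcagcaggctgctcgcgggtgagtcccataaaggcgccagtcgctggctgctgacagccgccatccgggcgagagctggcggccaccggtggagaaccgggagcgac
The ETS motif CCGGAAG, of the family to which Etv5 belongs, lay in 3 of 26 genes (Asz1, Fkbp6 and Tex14), or 11.5% against 9.93% of all genes. The E2F motif TTCCCGCC lay in 3 (Ddx4, Tex14 and Tuba3a), or 11.5% against 2.52%. The octamer ATGCAAAT, the BCL6-type TTCCTNGAA and the CRE TGACGTCA lay in no window of the 26 genes and in 1.97%, 1.86% and 2.03% of all genes, and their absence from these windows says nothing about the factors. All were searched on both strands, and each of the 4 windows printed held only the motif in capitals, so no motif there overlapped another. The matches describe sequence, were looked for after the array values were known, and were not tested against them.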

How the data were processed

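The deposited table holds intensity values on a linear scale for 45037 probe sets other than controls on 16 Affymetrix mouse expression arrays; the authors' tools, per the submitters' processing notes, were Partek 6.4, GCRMA, MAS5 and Affymetrix Expression Console 1.1, and the sources used here do not say which of them made the values. Values ran from 1.66 to 71511. Of the probe sets, 34945 had 1 gene symbol, 932 several and 9160 none; those with several or none were not used, and 204 Entrez identifiers were not matched in the RefSeq table.

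The intensities as deposited were taken to log2(value + 1), with 1 probe set per gene (highest mean over 16 arrays). Genes above the array's own median on at least 4 arrays were fitted in limma 3.58.1 (R 4.3.3), as 4 groups of 4 with an intensity trend, and tested two-sided with Benjamini-Hochberg adjustment over 11145 genes, called at 0.05. The small pseudocount leaves fold changes of dim genes understated. The fit was tried on simulated data, for Pou3f1 knockdown against control only. The simulated spread was taken without Bcl6b knockdown replicate 1 and drawn independently for each gene and array. It therefore says nothing about how the fit behaves with that array.

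All 35 genes are named. Values on every array are given for genes that passed in any comparison and for leading genes of each role. Of the other lists, genes that passed against control are named, up to 4 a list beside the siRNA targets. Genes most like a gene that passed were ranked by Pearson correlation. Genes, lists and tests were chosen with earlier results of these data known; the motifs, the single probe set fits, the marker sums without Etv5, Bcl6b or Vim and the settings combined with leaving out Bcl6b knockdown replicate 1 were added after the data were seen. Alternatives were other scalings, filters, pseudocounts, array weights, probe set means, a replicate block and leaving out each array. The labels do not say that replicate numbers pair the arrays, and the main fit did not pair them.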

Additional observations from a re-analysis of the deposited data

Results flagged for a closer look

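Of 112 groups of 4 arrays looked at, 14 held an array far from the other 3, where chance gives about 1 in 20 groups. Of the 14, 9 were on Bcl6b knockdown replicate 1. On that array Tdrd5 (299.5), Asz1 (2299), Mael (5182), Henmt1 (10.5), Prmt5 (914) and Tex101 (1202) were low. On the same array Piwil4 (504), Tdrd9 (412) and Mov10l1 (1697) were high.

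The other 5 lay on other arrays. Chance alone gives some such arrays, at about 1 in 20 groups, so these 5 are listed and not read as results. Dnd1 was low on Pou3f1 knockdown replicate 4 (1069) and Exd1 on Etv5 knockdown replicate 4 (222). Piwil4 was high on Etv5 knockdown replicate 2 (410), Henmt1 on Pou3f1 knockdown replicate 1 (168) and Dppa4 on control replicate 2 (758).

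Tdrd7 differed between knockdowns: Etv5 minus Pou3f1 knockdown was 0.24 and Bcl6b minus Pou3f1 knockdown was 0.23 on the log2 scale, both by a test of the difference itself in limma (adjusted p = 0.0314 and 0.0410). They passed in 22 and 11 of 30 alternative settings.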

How the results depend on the processing

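With all 16 arrays, 0, 0 and 1 of 28 genes passed against control in the Etv5, Bcl6b and Pou3f1 knockdowns, and 0, 1 and 1 passed between Etv5 and Bcl6b, Etv5 and Pou3f1, and Bcl6b and Pou3f1 knockdown. In that order of 6 comparisons, array weights gave 8, 3, 5, 3, 3 and 1. Fits of only the groups compared gave 4 for Etv5 and 3 for Pou3f1 against control, and 0 for Bcl6b against Pou3f1 knockdown. Centring each array on its median gave 2 for Bcl6b against control, 1 for Etv5 against Bcl6b and 2 for Bcl6b against Pou3f1 knockdown. In the same order, higher and lower calls among all tested genes were then 126 and 617, 212 and 47, and 116 and 215. Averaging probe sets gave 0 for Pou3f1 against control and for both comparisons of another knockdown with Pou3f1. No intensity trend gave 0 for both of the latter, and no filter gave 0 for Bcl6b against Pou3f1 and moved the median shift in Etv5 knockdown from 0.082 to 0.052. Leaving out 1 array, the 6 counts ran from 0 to 3, 0 to 1, 0 to 4, 0 to 2, 0 to 4 and 0 to 1, and the median shift in Etv5 knockdown from 0.047 to 0.084. Except for centring and leaving out Bcl6b knockdown replicate 1, the share of all genes called under these alternatives is not given here. Their counts are therefore not read as results about the listed genes.

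The following were chosen after seeing the data. Without Bcl6b knockdown replicate 1 and centred, the 6 counts were 1, 3, 3, 8, 2 and 6. Among all 11145 tested genes, higher and lower calls against control were then 390 and 400, 285 and 2682, and 402 and 530. Between knockdowns they were 1028 and 101, 299 and 236, and 208 and 1119. With quantile normalization the 6 counts were 4, 0, 4, 2, 4 and 1. Among all tested genes, higher and lower calls against control with quantile normalization were 602 and 523, 536 and 705, and 589 and 637. Between knockdowns they were 363 and 194, 380 and 345, and 335 and 359. With a pseudocount of 16 the 6 counts were 3, 0, 4, 2, 4 and 1, and with averaged probe sets 5, 1, 2, 2, 4 and 2. The share of all genes is not given for these last settings, so their counts are not read as results about the listed genes. Exd1 between Bcl6b and Pou3f1 knockdown turned from 0.04 with 16 arrays to -0.20 without that array (adjusted p = 0.200) and to -0.28 when centred as well (adjusted p = 0.0454). The causes were not tested, beyond the fewer arrays in each fit.

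Centring also shifted the median of all genes in Bcl6b knockdown, without replicate 1, from -0.04 to -0.12, and the split of all called genes from 454 higher and 766 lower to 285 and 2682; with 16 arrays it went from 184 and 174 to 126 and 617. The higher share in Pou3f1 knockdown without replicate 1 went from 37.8% to 48% under quantile normalization. Tdrd7 in Pou3f1 knockdown kept its direction in 30 of 30 alternatives and passed in 23, and against Etv5 and Bcl6b knockdown it passed in 22 and 11.

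Deviations from the group means correlated weakly between arrays with the same replicate number: over 24 pairs r ran from -0.26 to 0.20 (median 0.06). Over 72 pairs with different numbers r ran from -0.29 to 0.20 (median -0.02). Of the same-number pairs, 5 exceeded 0.1, and 6 of 16 arrays correlated best with their own number. Whether the number marks arrays handled together was not tested. With the replicate number as a block the counts were 0, 0, 1, 0, 0 and 0.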
